A study of Mus musculus with 6 samples.

Results

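The mitosis genes described here are 36 genes that act from entry into mitosis to the separation of the daughter cells: the mitotic cyclins and CDK1, the mitotic kinases, the chromosomal passenger complex, checkpoint and anaphase proteins, kinetochore proteins, kinesin motors, spindle proteins, cytokinesis regulators, and the proliferation marker Mki67 with topoisomerase Top2a. They were taken by symbol from a list of genes with known roles in mitosis, drawn up with earlier results of these data known. All 36 were among the 20097 genes listed in every library, and all 36 were among the 15410 genes with enough reads to test. Transcripts were measured in mouse c-Kit+ bone marrow cells, a fraction rich in stem and progenitor cells that carry the KIT receptor on their surface. There were 6 libraries, 3 labelled WT and 3 labelled Runx1 KO. RUNX1 is a DNA-binding transcription factor needed for the formation of blood stem cells in the embryo and for normal blood production in the adult. The labels give no age, sex, strain, allele, Cre driver or time of deletion for either group, and they do not say whether the libraries of a group came from separate animals. The p-values below therefore measure only the spread between these libraries, which may be technical.

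In a dividing cell, cyclin B bound to CDK1 drives entry into mitosis, and Polo and Aurora kinases build the spindle and correct faulty attachments of chromosomes to it. The spindle assembly checkpoint holds the anaphase-promoting complex until the kinetochores are attached, and this ubiquitin ligase, activated by CDC20, then marks cyclin B and securin for destruction. The RNAs of most of these proteins accumulate late in the cell cycle under the DREAM, B-MYB and FOXM1 complexes, so in a bulk sample their level follows how many cells are in G2 and mitosis as well as how much RNA each such cell holds. In bulk samples, fewer cells of a type and less RNA per cell cannot be told apart.

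Between 23297526 and 26793380 reads per library were counted in genes. The targeted gene, Runx1, did not fall with the KO label: its normalised read counts (reads per gene, scaled for the depth of the library) were 3031, 2799 and 3497 in the WT libraries and 6648, 6720 and 5830 in the Runx1 KO libraries, 2.06 times the WT mean (log2 change 1.04, SE 0.10, adjusted p 0.00163, limma). A gene-level count also takes up reads from a transcript that makes no working protein, so it does not check the labels, and the groups are called here by their labels, WT and KO-labelled. Kit, the receptor used to collect the cells, was present in every library, at 7979, 8455 and 8471 in WT and 11507, 13684 and 12756 in the KO-labelled libraries.

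Transcripts of the mitosis genes were lower in the KO-labelled libraries. Of the 36 genes, 19 fell at an adjusted p under 0.05 (limma on log2 of the normalised read count plus 1, Benjamini-Hochberg over all genes tested), 0 rose, and 17 did not pass; edgeR called 18 lower and DESeq2 24, with 0 higher in both. At an unadjusted p under 0.05 limma had 27 lower and 0 higher, against 2981 lower and 2829 higher of the 15410 genes tested. Across all genes tested, 11.3% were called lower and 10.6% higher, and among the 5188 genes whose mean level was at or above that of the least abundant mitosis gene 13.8% were called lower. The falls were modest, from 18.3% (Aurkb) to 29.3% (Racgap1) of the WT mean among the called genes. The median log2 change of the 36 genes was −0.31, against −0.0042 for all genes tested, and 35 of 36 changes were below 0, the exception being Ttk. For 26 of the 36 every KO-labelled library was below every WT library, a pattern seen in 21.9% of all genes tested. The counting error of the mitosis genes was small: the fewest reads behind any value was 1159, an error of 2.94% at most. The median SD of their log2 values within a group was 0.10, against 0.15 for all genes tested. Most genes tested had a mean level below that of every mitosis gene, and the SD of genes of like level was not compared.

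**Figure D1:**
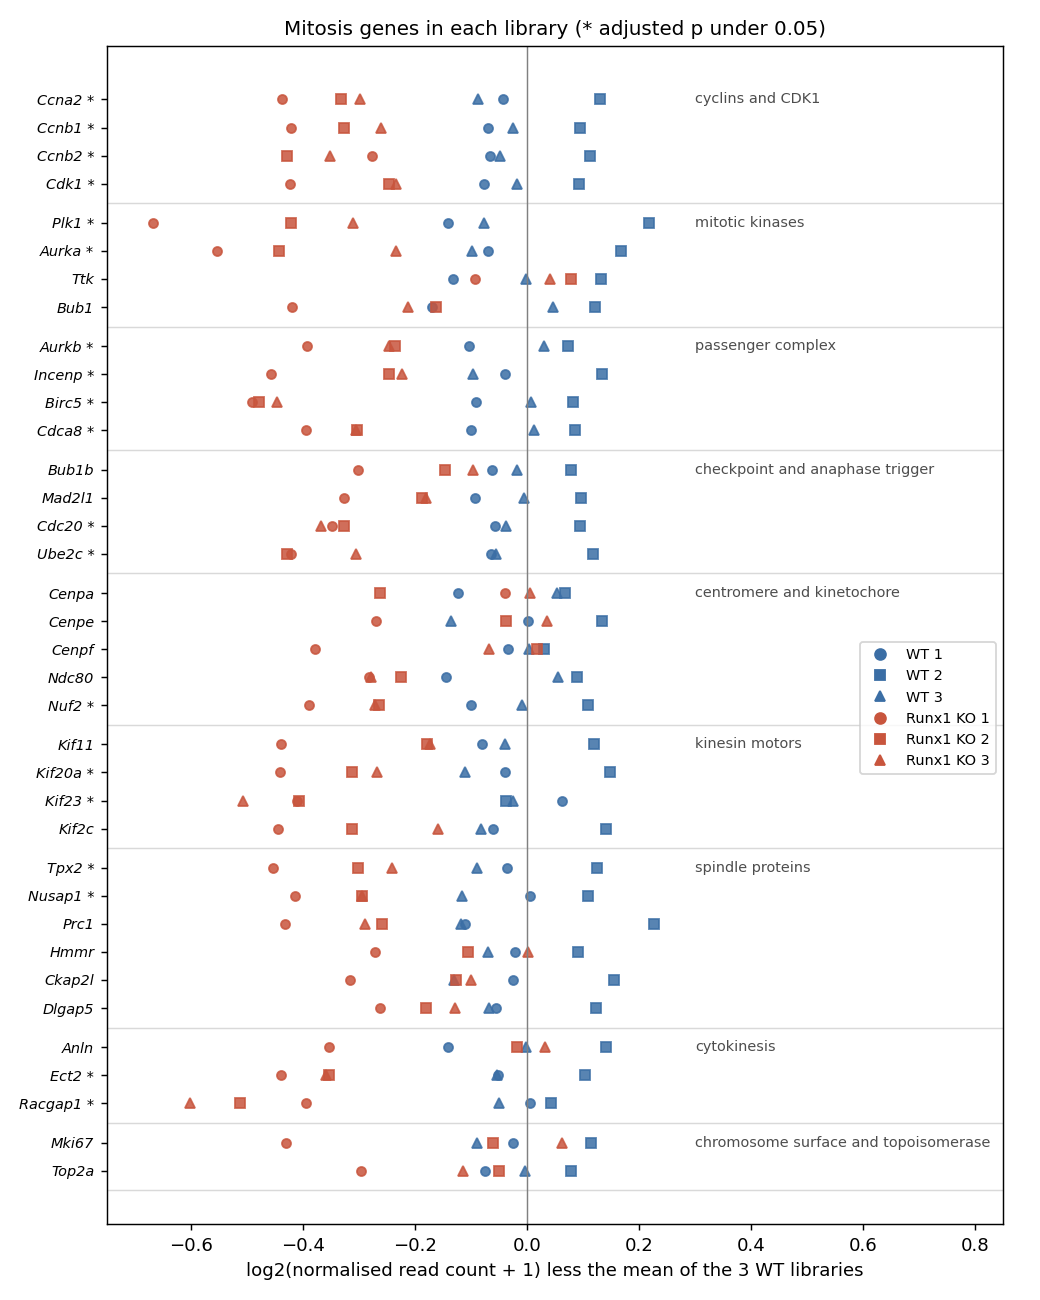
Log2 of the normalised read count plus 1 of each mitosis gene in each library, less the mean of the 3 WT libraries, ordered by role (blue, WT; red, Runx1 KO; the symbol shape gives the replicate number; * marks an adjusted p under 0.05). The red points lie to the left of the blue ones for 26 genes, and KO replicate 1 is the leftmost red point for 30 of 36 genes.

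The number of calls depended on the scaling and on single libraries. With library totals in place of median-of-ratios size factors 11 genes were called lower (8.9% of all genes), and with trends on GC content and transcript length removed 5 were (9.38% of all genes). Leaving out KO replicate 2 left 5 calls, leaving out WT replicate 2 or KO replicate 3 left 10 each, and leaving out KO replicate 1 left 11. The number of all genes called also varied over these fits, as given in the last section. These counts therefore do not describe the mitosis genes alone. The median of the mitosis genes stayed 0.29 to 0.31 below that of all genes on the log2 scale in all 14 settings that used every library. A change of library scaling moves both medians nearly alike, so this difference could not show an effect of scaling. With a library left out the difference ran from −0.24 (without KO replicate 1) to −0.34 (without WT replicate 1). Racgap1, Kif23 and Ect2 were called lower in all 20 settings run, with highest adjusted p of 0.0271, 0.0238 and 0.0421 (limma, edgeR or DESeq2, Benjamini-Hochberg). Ttk, Bub1b, Ckap2l, Hmmr, Anln, Dlgap5, Cenpe, Cenpa, Mki67 and Top2a were called in none.

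**Figure D2:**
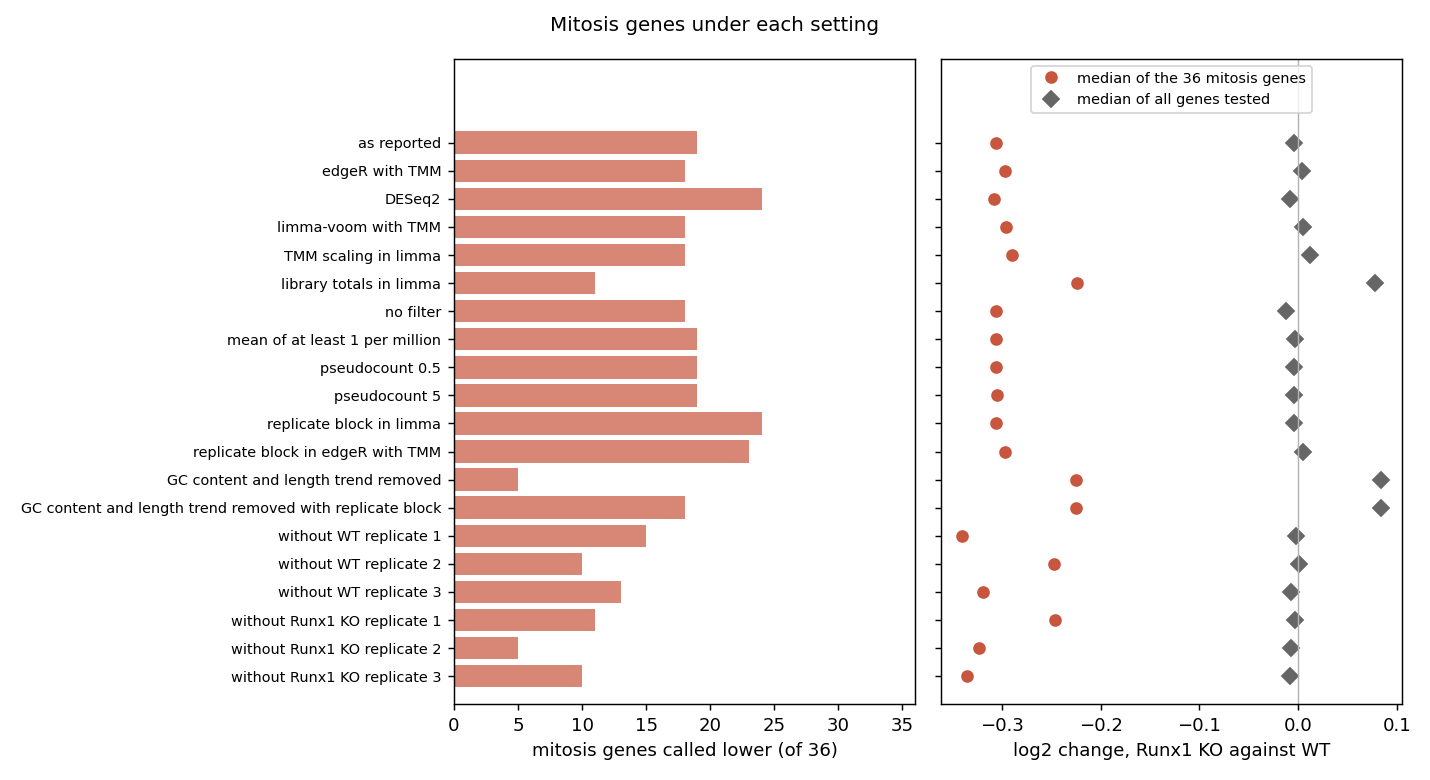
Number of the 36 mitosis genes called lower (left) and the median log2 change of the mitosis genes and of all genes tested (right) under each of the 20 settings. The count ranges from 5 to 24, while the median of the mitosis genes lies between −0.34 and −0.22 and left of that of all genes in every setting.

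The cyclins and their kinase fell together, 4 of 4 called, with a median log2 change of −0.34. Ccna2, cyclin A2, which acts in S phase and G2, read 6175, 6966 and 5990 in WT and 4701, 5057 and 5177 in the KO-labelled libraries. Its mean fell from 6377 ± 519 to 4978 ± 247 (SD, n = 3 each), a log2 change of −0.36 (SE 0.07, adjusted p 0.0182). Even the highest KO-labelled library was below the lowest WT one. Ccnb1, the main mitotic cyclin, read 3373, 3779 and 3480 in WT and 2643, 2822 and 2954 in the KO-labelled libraries (log2 change −0.34, SE 0.07, adjusted p 0.0169). Ccnb2, the second B-type cyclin, read 3360, 3805 and 3404 against 2903, 2614 and 2756 (log2 change −0.35, SE 0.07, adjusted p 0.0162). For both B cyclins the groups were apart, and for Ccnb2 the lowest library was KO replicate 2, not KO replicate 1. Cdk1, the kinase that these cyclins activate, read 3763, 4231 and 3917 in WT and 2958, 3344 and 3374 in the KO-labelled libraries. Its fall was 18.8% of the WT mean (log2 change −0.30, SE 0.08, adjusted p 0.0319), again without overlap.

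Among the mitotic kinases, Plk1 and Aurka fell, while Bub1 and Ttk did not pass. Plk1, the Polo kinase of spindle assembly and mitotic entry, read 2796, 3589 and 2924 in WT and 1941, 2303 and 2486 in the KO-labelled libraries, a fall of 27.7% (log2 change −0.47, SE 0.12, adjusted p 0.0382). Aurka, the Aurora kinase of the spindle poles, read 2443, 2878 and 2394 in WT and 1746, 1886 and 2179 in the KO-labelled libraries, a fall of 24.7% (log2 change −0.41, SE 0.11, adjusted p 0.0355). Both had separate groups, yet their spread was wide, with WT replicate 2 well above the other WT libraries and KO replicate 1 the lowest of all. Ttk, the MPS1 kinase that starts checkpoint signalling at kinetochores, read 1397, 1677 and 1529 in WT and 1434, 1615 and 1575 in the KO-labelled libraries. Its groups overlapped fully, with means of 1534 ± 140 and 1542 ± 95.2 (SD, n = 3 each) and a log2 change of 0.0090 (SE 0.09, adjusted p 0.951). Bub1, a checkpoint kinase that marks the centromere, had a mean of 3024 ± 309 in WT and 2516 ± 232 in the KO-labelled libraries (log2 change −0.26, SE 0.10, adjusted p 0.101), and its groups overlapped.

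All 4 genes of the chromosomal passenger complex, which sits at the inner centromere and later at the midzone of the spindle, were lower. Birc5, which encodes survivin, read 2924, 3299 and 3132 in WT and 2216, 2235 and 2285 in the KO-labelled libraries. The KO-labelled values lay within a narrow band far below WT: the means were 3118 ± 188 and 2245 ± 36.1 (SD, n = 3 each), a fall of 28.0%. Its log2 change of −0.47 (SE 0.06) had the lowest adjusted p of the 36 genes, 0.00407. Cdca8, the borealin subunit, read 3552, 4038 and 3838 in WT and 2895, 3081 and 3078 in the KO-labelled libraries (log2 change −0.33, SE 0.07, adjusted p 0.0147). Aurkb, the kinase of the complex, read 3385, 3823 and 3712 against 2768, 3088 and 3065 (log2 change −0.29, SE 0.07, adjusted p 0.0311). In both genes the groups were separate and KO replicate 1 was lowest. Incenp, the scaffold of the complex, fell by 0.31 on the log2 scale (SE 0.09) and was the called gene nearest the threshold, with an adjusted p of 0.0483.

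Of the 4 mitosis genes of the checkpoint and the anaphase trigger, Cdc20 and Ube2c fell, and Bub1b and Mad2l1 did not pass the threshold. Cdc20, the activator of the anaphase-promoting complex, read 3398, 3778 and 3446 in WT and 2778, 2819 and 2740 in the KO-labelled libraries. Its mean was 3541 ± 207 in WT and 2779 ± 39.3 in the KO-labelled libraries (SD, n = 3 each), a log2 change of −0.35 (SE 0.06, adjusted p 0.00956). The KO-labelled libraries were nearly equal to each other and all below WT. Ube2c, the ubiquitin-conjugating enzyme of that complex, read 3179, 3606 and 3198 in WT and 2480.2, 2468 and 2688 in the KO-labelled libraries (log2 change −0.39, SE 0.07, adjusted p 0.0122), also without overlap. Bub1b, which encodes the checkpoint protein BUBR1, was 11.7% lower (log2 change −0.18, SE 0.07, adjusted p 0.115). Mad2l1, the checkpoint protein MAD2, was 14.8% lower (log2 change −0.23, SE 0.07, adjusted p 0.0604), and DESeq2 called it lower (adjusted p 0.0254). In Bub1b and Mad2l1 the groups were nonetheless apart. Of 18 other checkpoint genes and mitotic kinases outside the 36, 5 were called lower, 1 was called higher and the rest did not pass. Among the 5 were Bub3, the partner of BUBR1 (log2 change −0.26, SE 0.06, adjusted p 0.0186), and Mad1l1, the partner of MAD2 (log2 change −0.21, SE 0.06, adjusted p 0.0433). Both were named here after their values were seen, and the fall of Mad1l1 was no larger than that of Mad2l1.

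At the centromere and kinetochore the changes were smaller, with a median log2 change of −0.14 and 1 of 5 genes called. Nuf2, a subunit of the NDC80 complex that grips microtubule ends, fell from 2496 ± 182 to 2014 ± 96.4 (SD, n = 3 each; log2 change −0.31, SE 0.07, adjusted p 0.0274). Ndc80, its partner in the complex, was 16.8% lower without overlap but missed the threshold (log2 change −0.26, SE 0.08, adjusted p 0.0542). Cenpa, the histone H3 variant of the centromere, read 2285, 2608 and 2583 in WT and 2423, 2073 and 2497 in the KO-labelled libraries (log2 change −0.10, SE 0.09, adjusted p 0.471). Cenpe, the kinetochore kinesin that brings chromosomes to the spindle equator, read 3711, 4066 and 3376 in WT and 3074, 3614 and 3800.1 in the KO-labelled libraries (log2 change −0.09, SE 0.10, adjusted p 0.555). The groups overlapped for both, and with the trends on GC content and length removed the change of Cenpa was 0.05. Cenpf, a large coiled-coil protein of the outer kinetochore, had a log2 change of −0.14 (SE 0.10, adjusted p 0.355), with KO replicate 1 at 2262 and the other 5 libraries between 2805 and 3004.

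Both genes of the centralspindlin complex, which organises the spindle midzone and calls RhoA to the cleavage furrow, fell. Racgap1, its GTPase-activating subunit, read 5694, 5844 and 5481 in WT and 4316, 3977 and 3737 in the KO-labelled libraries. That was a fall of 29.3%, from 5673 ± 183 to 4010.2 ± 291 (SD, n = 3 each), the deepest of the 36 genes (log2 change −0.50, SE 0.07, adjusted p 0.00436). Kif23, the kinesin subunit of the same complex, read 3575, 3335 and 3364 in WT and 2575, 2583 and 2409 in the KO-labelled libraries (log2 change −0.44, SE 0.06, adjusted p 0.00426). Both genes differed from most of the set in their pattern across libraries, since WT replicate 2 was not high for Kif23 and KO replicate 3, not KO replicate 1, was lowest for both. Ect2, the RhoA exchange factor that centralspindlin recruits, read 2768, 3083 and 2765 in WT and 2115, 2245 and 2237 in the KO-labelled libraries. It fell by 23.4% (log2 change −0.38, SE 0.07, adjusted p 0.00926), with the KO-labelled libraries close together. Anln, the anillin scaffold of the contractile ring, read 2369, 2881 and 2609 in WT and 2043, 2580 and 2672 in the KO-labelled libraries. Its groups overlapped (log2 change −0.11, SE 0.12, adjusted p 0.530), and without KO replicate 1 the change was 0.0078.

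**Figure D3:**
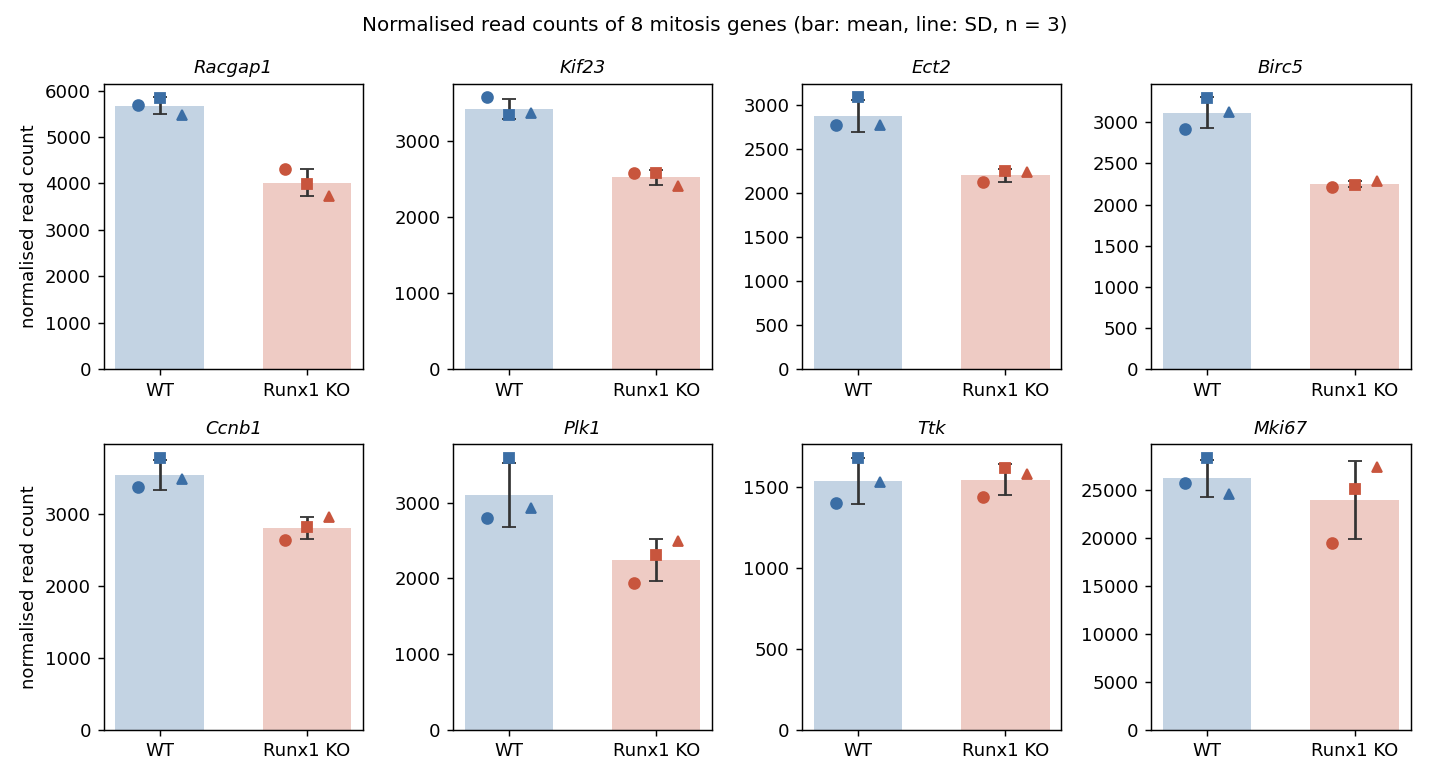
Normalised read counts of selected mitosis genes in each of the 6 libraries, with the group mean and SD (n = 3 each). Racgap1, Kif23 and Birc5 show separate groups, whereas the KO-labelled values of Ttk (1434 to 1615) lie within those of WT (1397 to 1677), and the Mki67 groups overlap.

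Of the other kinesins, Kif20a, a motor of the midzone, fell by 21.1% (log2 change −0.34, SE 0.09, adjusted p 0.0318). Kif2c, which removes tubulin from microtubule ends at centromeres, was 19.0% lower without overlap (log2 change −0.30, SE 0.10, adjusted p 0.0627). Kif11, the motor that pushes spindle poles apart, was 16.5% lower without overlap (log2 change −0.26, SE 0.09, adjusted p 0.0829). The last pair thus had separate groups but did not pass the threshold.

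Among 6 spindle proteins 2 were called. Tpx2, which activates Aurora A and nucleates microtubules, fell from 6719 ± 526 to 5339 ± 399 (SD, n = 3 each; log2 change −0.33, SE 0.08, adjusted p 0.0302). Nusap1, a microtubule-bundling protein, fell by 20.8% (log2 change −0.33, SE 0.07, adjusted p 0.0214). Prc1, the bundler of the midzone, was 20.6% lower, as much as Nusap1, but with a wider WT spread of 2703 ± 383 (SD, n = 3) it had an adjusted p of 0.0676. The smaller differences were those of Dlgap5 (log2 change −0.19, adjusted p 0.106), Ckap2l (log2 change −0.18, adjusted p 0.206) and Hmmr (log2 change −0.12, adjusted p 0.324), none of which passed. Dlgap5 had separate groups, and those of Ckap2l and Hmmr overlapped.

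Mki67 and Top2a, the pair most used to score proliferating cells, did not pass. Mki67, which coats mitotic chromosomes, read 25683, 28295 and 24585 in WT and 19403, 25082 and 27316 in the KO-labelled libraries. Only KO replicate 1 lay below all WT libraries, so the log2 change was −0.14 (SE 0.13, adjusted p 0.463), and without that library it was 0.0018. Top2a, the topoisomerase that untangles sister DNA, read 20100, 22339 and 21101 in WT and 17235, 20441 and 19562 in the KO-labelled libraries (log2 change −0.15, SE 0.08, adjusted p 0.212). KO replicate 2 lay within the WT range. Per kilobase of annotated transcript, Top2a had the highest mean WT level of the 36 genes (4057 normalised reads per kb), followed by Ube2c (3442), Birc5 (3293) and Mki67 (2603), and Cenpf the lowest (264).

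Within the set, the size of the change went with transcript length and base composition. Across the 36 genes the Spearman correlation of log2 change with the length of the annotated principal transcript was 0.48, and with its GC content −0.48; length and GC content were themselves related (−0.57), all points came from the same 6 libraries, and these are descriptions with no test. Over all genes tested the corresponding values were 0.13 and −0.03. Of the 5 genes with a transcript of 5 kb or more (Mki67, Top2a, Cenpe, Cenpf and Mad2l1) 0 were called by limma and 1 had an unadjusted p under 0.05. The short transcripts of Ube2c and Birc5 had log2 changes of −0.39 and −0.47. The correlation of the change with the WT level was −0.09. The part of transcript length in the differences between members was not tested beyond the fit with both trends removed, in which 5 genes were called. In that fit the median of the mitosis genes less that of all genes was −0.31, against −0.30 as reported.

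**Figure D4:**
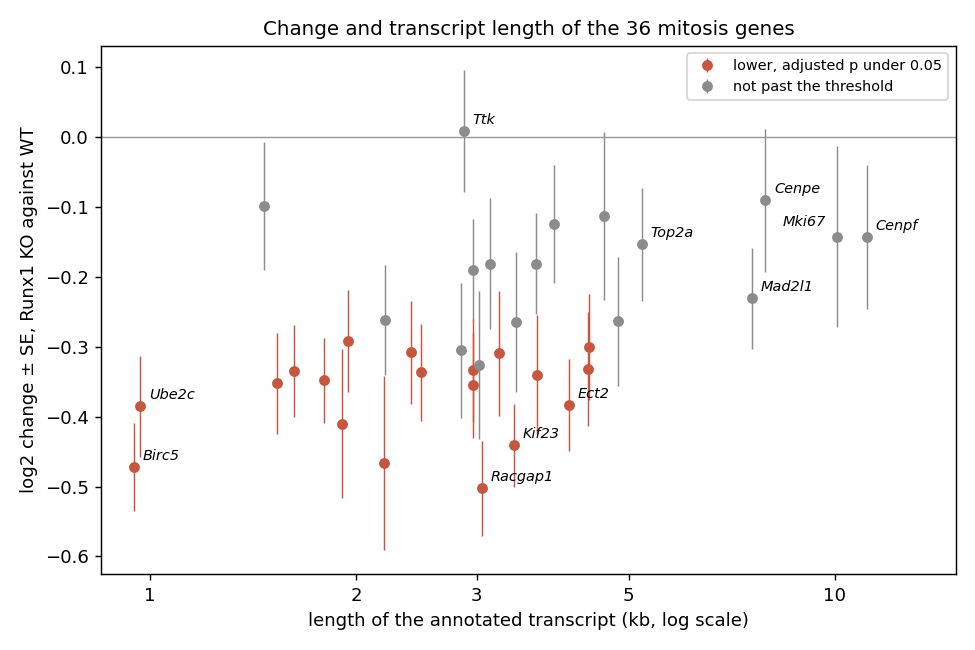
Log2 change with its SE against the length of the annotated transcript (kb, log scale) for the 36 mitosis genes, red for the 19 called lower. The 5 transcripts of 5 kb or more are all grey, with log2 changes from −0.23 (Mad2l1) to −0.09 (Cenpe).

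The mitosis genes shifted together from library to library. The mean log2 value of the 36 genes, less the WT mean, was −0.07, 0.11 and −0.04 in WT and −0.38, −0.25 and −0.21 in the KO-labelled libraries. WT replicate 2 was the highest WT library for 35 of 36 mitosis genes and KO replicate 1 the lowest KO-labelled library for 30 of 36, whereas over all genes these libraries held those places for 35.1% and 37.2%. The mitosis genes took 0.619%, 0.703% and 0.659% of the counted reads in WT and 0.537%, 0.602% and 0.626% in the KO-labelled libraries, so on raw shares KO replicate 3 lay above WT replicate 1. The mean log2 value of 49 DNA replication genes, less its WT mean, was −0.11, 0.12 and −0.01 in WT and −0.22, −0.10 and −0.10 in the KO-labelled libraries, a pattern of the same shape with a smaller step between the groups, which overlapped. The difference between the mean of the mitosis genes and that of the replication genes, which does not depend on any scaling of the libraries, was 0.34, 0.29 and 0.27 in WT and 0.14, 0.15 and 0.18 in the KO-labelled libraries. On this measure the groups were apart, and the WT replicate 2 library no longer stood out.

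Set against the mean of the replication genes in the same library, 31 of 36 mitosis genes were still lower, with a median log2 change of −0.17, and 6 were called, against 5.28% of all genes called lower on that scale. They were Birc5 (log2 change −0.33, adjusted p 0.0166), Ect2 (−0.25, 0.0380), Plk1 (−0.33, 0.0382), Ube2c (−0.25, 0.0459), Racgap1 (−0.36, 0.0467) and Ccna2 (−0.22, 0.0497). Leaving out any 1 library reduced this count to between 0 and 3. Set against the mean of the 36 mitosis genes themselves, Ttk was the only one called, higher by 0.29 on the log2 scale (SE 0.07, adjusted p 0.0173). On that scale 36.8% of all genes were called higher, and the count among the members ran from 0 without KO replicate 2 to 3 without KO replicate 1, when Ttk was joined by Mki67 and Anln. Both measures were added after the values had been seen.

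Other genes of mitosis were also lower more often than higher. Of 151 further genes in 7 lists of mitotic genes and their regulators, 36 (23.8%) were called lower and 4 higher, with a median log2 change of −0.13 and 116 below 0. Over these lists and the DNA replication list 45 genes were called in either direction, but 24 with library totals, 19 with the GC content and length trends removed, and 12 to 37 with a library left out. Among 32 other spindle motors and spindle proteins 12 fell (37.5%) and 1 rose. Depdc1a and Depdc1b, spindle-associated relatives of each other, fell by 0.56 (SE 0.07, adjusted p 0.00415) and 0.47 (SE 0.08, adjusted p 0.00776) on the log2 scale. Tuba1c, an alpha-tubulin, fell by 0.74 (SE 0.12, adjusted p 0.00792), a value that is uncertain because alpha-tubulin genes are nearly identical and can share reads. Numa1, which anchors spindle poles, was the member of that list that rose (log2 change 0.20, SE 0.05, adjusted p 0.0410). Of 12 other cytokinesis genes 6 fell (50%), led by Iqgap3 (log2 change −0.57, SE 0.10), Cdca3 (−0.43, SE 0.08) and Shcbp1 (−0.31, SE 0.07).

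Of 20 condensin and cohesin genes 2 fell (10%), a share near that of all genes called lower. Even so, 18 of the 20 changes (90%) were below 0, against 50.6% of all genes tested, with a median log2 change of −0.20. At an unadjusted p under 0.05 limma had 9 of them lower. Pttg1, the securin that holds separase inactive until anaphase, read 827, 832 and 749 in WT and 424, 385 and 448 in the KO-labelled libraries, a fall of 47.9% (log2 change −0.94, SE 0.09, adjusted p 0.00198). Rad21, the cohesin subunit that separase cleaves, fell by 0.32 (SE 0.06, adjusted p 0.00967). Of 24 genes of mitotic entry and exit 7 fell (29.2%). Cdkn3, a phosphatase that acts on cyclin-dependent kinases, read 751, 758 and 674 in WT and 396, 358 and 358 in the KO-labelled libraries, a fall of 49.0% (log2 change −0.97, SE 0.09, adjusted p 0.00163). For Pttg1 and Cdkn3 the libraries of a group lay close together with a wide gap between the groups, and both falls were larger than any among the 36 mitosis genes. The CDK1-activating phosphatases Cdc25a and Cdc25c fell by 0.37 (SE 0.10) and 0.34 (SE 0.10).

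Of 29 other kinetochore and centromere genes 4 fell (13.8%), against 11.3% of all genes and 13.8% of those at or above the level of the least abundant mitosis gene. Of the 29 changes 23 were below 0, with a median log2 change of −0.08. Spc25 and Spc24, the partners of NDC80 and NUF2 in the NDC80 complex, fell by 0.49 (SE 0.07, adjusted p 0.00667) and 0.34 (SE 0.08, adjusted p 0.0283), and Cenpl fell by 0.38 (SE 0.08). Of 18 other checkpoint genes and kinases 5 fell (27.8%), led by Melk (log2 change −0.43, SE 0.08) and Pbk (−0.29, SE 0.08), and Mad2l2, a MAD2 relative that acts in DNA repair, rose by 0.27 (SE 0.08, adjusted p 0.0437). Of the 49 DNA replication genes 5 fell (10.2%, also near the share of all genes), with a median log2 change of −0.13, among them Rrm2, Tk1 and Tyms, which supply deoxynucleotides (log2 changes −0.60, −0.37 and −0.32). Even so, 40 of the 49 changes (81.6%) were below 0, against 50.6% of all genes tested. At an unadjusted p under 0.05 limma had 16 of them lower and 0 higher.

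**Figure D5:**
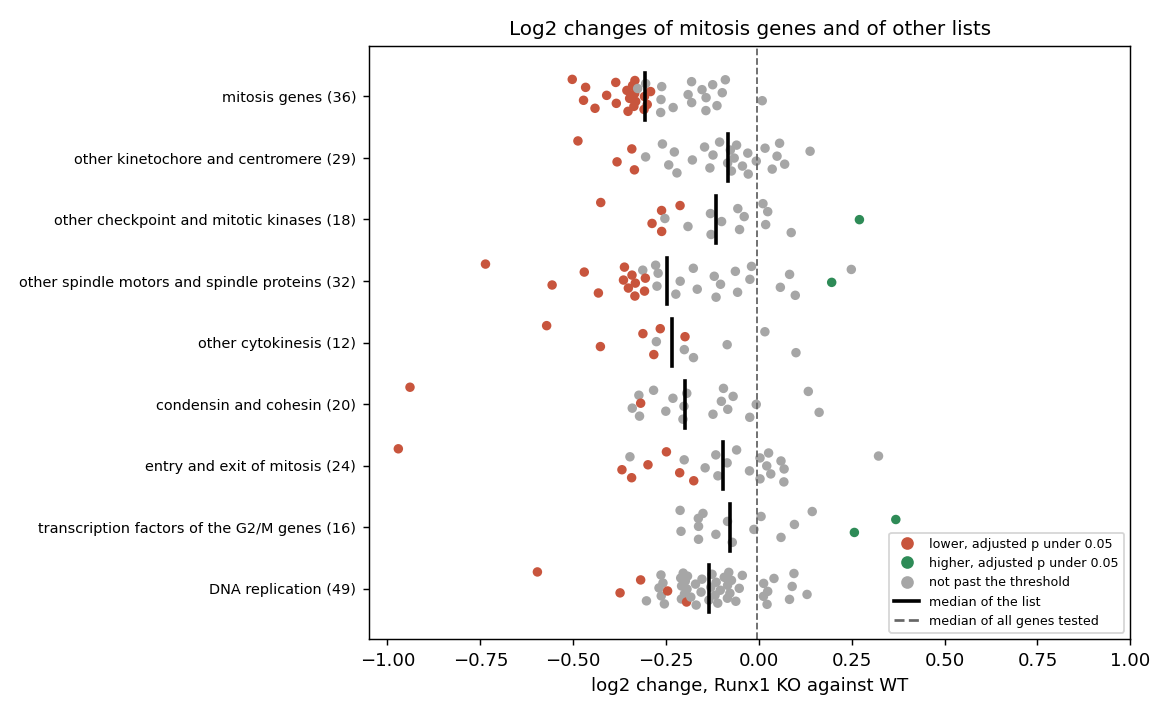
Log2 change of each of the 36 mitosis genes (top line) and of each gene of the 8 further lists, with the median of each list (bar) and of all genes (dashed line); red and green mark genes called lower and higher. The median is −0.31 for the mitosis genes and runs from −0.25 to −0.08 in the further lists.

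Of 16 transcription factors and cofactors that act on G2 and mitosis genes 0 fell and 2 rose with limma; 2 were lower at an unadjusted p under 0.05, and DESeq2 called 2 lower and edgeR 0. Foxm1, the forkhead factor of G2 genes, read 3370, 3430 and 3685 in WT and 3107, 3375 and 2894 in the KO-labelled libraries (log2 change −0.16, SE 0.07, adjusted p 0.154). Mybl2, which encodes B-MYB, read 2965, 4074 and 3452 against 2729, 3302 and 2992 (log2 change −0.21, SE 0.13, adjusted p 0.265). Foxm1 overlapped by a single library pair and Mybl2 more widely. Nfya, a subunit of the CCAAT-binding factor NF-Y, rose by 0.26 (SE 0.07, adjusted p 0.0334), and Tfdp2, a partner of E2F factors, rose by 0.37 (SE 0.10, adjusted p 0.0396).

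Promoters of 30 of the 36 genes were found in a RefSeq table of mouse promoters (GRCm38.p6, 250 bases before to 50 bases after each gene's start); Kif20a, Aurkb, Ccna2, Dlgap5, Tpx2 and Incenp were not matched. The cell cycle genes homology region, CHR, is the element by which DREAM, B-MYB and FOXM1 complexes reach late cell cycle genes, and the CCAAT box is the site of NF-Y. The letters TTTGAA or TTCGAA, searched on both strands, were in 24 of 30 promoters (80%), against 21.7% of the 27025 promoters in the table. The letters CCAAT on either strand were in 23 of 30 (76.7%), against 41.1%, and both were in 21 of 30 (70%), against 9.65%. A core of the RUNX site, TGTGGT or TGCGGT on either strand, was in 6 of 30 (20%), against 25.0%, namely Ect2, Kif2c, Cenpa, Plk1, Birc5 and Kif11. CHR letters were in 10 of the 14 called genes that matched and in 14 of the 16 others, so their presence did not separate the 2 sets, and the median log2 change was −0.28 with them and −0.32 without. These matches describe letters in a window and are not measured binding sites.

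The windows below, 80 bases before to 20 bases after the RefSeq start, are shown because they hold the same letters in genes with different changes, with CHR and CCAAT letters of either strand in capitals. Racgap1 (chr15:99651637-99651736, minus strand), Kif23 (chr9:61946780-61946879, minus strand), Cdc20 (chr4:118437324-118437423, minus strand), Ube2c (chr2:164769849-164769948, plus strand) and Cdk1 (chr10:69352893-69352992, minus strand) fell, Ttk (chr9:83834609-83834708, plus strand) and Top2a (chr11:99024170-99024269, minus strand) did not pass, and Birc5 (chr11:117849157-117849256, plus strand) fell with no match in its window.
Racgap1: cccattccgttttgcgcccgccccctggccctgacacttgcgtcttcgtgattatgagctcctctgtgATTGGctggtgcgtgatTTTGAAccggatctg
Kif23: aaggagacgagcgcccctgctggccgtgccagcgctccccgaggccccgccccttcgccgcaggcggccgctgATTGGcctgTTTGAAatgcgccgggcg
Cdc20: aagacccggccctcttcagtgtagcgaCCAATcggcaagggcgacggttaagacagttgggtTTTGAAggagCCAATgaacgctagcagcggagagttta
Ube2c: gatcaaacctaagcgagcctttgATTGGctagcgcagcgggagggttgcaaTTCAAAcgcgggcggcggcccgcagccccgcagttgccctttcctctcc
Cdk1: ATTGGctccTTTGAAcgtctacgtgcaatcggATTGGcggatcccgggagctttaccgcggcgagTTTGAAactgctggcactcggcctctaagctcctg
Ttk: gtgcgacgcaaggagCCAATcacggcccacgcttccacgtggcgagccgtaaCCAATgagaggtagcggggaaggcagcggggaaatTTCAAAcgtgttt
Top2a: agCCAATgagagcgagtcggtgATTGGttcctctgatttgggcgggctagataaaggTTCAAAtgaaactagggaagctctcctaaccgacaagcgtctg
Birc5: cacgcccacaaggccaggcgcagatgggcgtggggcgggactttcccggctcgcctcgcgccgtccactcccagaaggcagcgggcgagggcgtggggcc
In Racgap1 and Kif23, which were called in every setting run, an inverted CCAAT box stood upstream of TTTGAA at the start site. Ttk and Top2a held the same elements as the genes that fell, with the CHR on the other strand, as in Ube2c.

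Marker genes of several cell types also differed between the groups. Of 10 stem and progenitor markers 6 rose; their summed level was 29620 to 36647 normalised reads in WT and 35868 to 41319 in the KO-labelled libraries, and Kit and Cd34 rose by 0.60 and 0.47 on the log2 scale. Ptprc, which encodes the pan-leukocyte antigen CD45 and was named after its values were seen, went the other way without passing (log2 change −0.62, SE 0.20, adjusted p 0.0637), with the groups apart. Of 10 neutrophil markers 8 fell, with sums of 292090 to 353350 in WT and 154570 to 205460 in the KO-labelled libraries; among early granule genes Mpo had a log2 change of −0.14 (adjusted p 0.233), and Elane and Prtn3 fell by 0.35 and 0.41. Of 8 B cell markers 6 fell, with sums of 6166 to 27674 in WT and 1022 to 2840 in the KO-labelled libraries. Of 10 erythroid markers 4 fell, with sums of 29810 to 43803 and 26135 to 41481; these were Hba-a1, Hbb-bt, Alas2 and Slc4a1, genes of late red cell precursors, named after their values were seen. The early erythroid genes Klf1 and Epor were higher without passing (log2 changes 0.74 and 0.68, adjusted p 0.0816 and 0.107), with separate groups for Klf1. Of 6 mast cell and basophil markers 4 fell (12269 to 16690 and 9646 to 12046). Prss34 and Mcpt8 fell by 99.9% and 92.0% of the WT mean. Cpa3 and Hdc were higher without passing (log2 changes 0.40 and 0.31). Hdc, named after its values were seen, was the largest part of the sum in both groups. Of 6 macrophage markers 2 fell (34414 to 36179 and 22518 to 26966) and 1 was higher without passing. Adgre1 fell by 0.59 on the log2 scale. Ly6c2, named after its values were seen, fell from a mean of 14148 to 6367. Csf1r and C1qa were lower without passing (log2 changes −0.34 and −0.53), with overlapping groups. Of 5 tested megakaryocyte markers 3 rose (2872 to 3455 and 3455 to 5573). Itga2b and Gp9 rose by 0.76 and 0.87 on the log2 scale. Pf4 was lower without passing (log2 change −0.89, adjusted p 0.0782, limma), with the groups apart. Of 5 T cell markers 1 fell (532 to 1453 and 119 to 660.1). Of 5 tested stromal markers 3 fell (3345 to 4102 and 2791 to 3931), namely Cxcl12, Col1a1 and Col1a2 (log2 changes −2.95, −2.85 and −1.58). Most of the stromal sum was Pecam1, named after its values were seen. Its means were 3185 in WT and 3072 in the KO-labelled libraries (log2 change −0.06). No marker with values was at 0 in every library of a group. The megakaryocyte marker Gp1bb was not matched to a listed gene, so its level is not known. Within the groups the neutrophil and B cell genes did not all behave alike. Elane had the same highest WT and lowest KO-labelled library as the mean of the mitosis genes. It read 30586, 34764 and 28940 in WT and 23710, 25284 and 24872 in the KO-labelled libraries. Ltf and Cd79a had other patterns. KO replicate 1, lowest of the KO-labelled libraries in the mean of the mitosis genes, was the highest of them for Ltf (23247, against 7105 and 6219) and Cd79a (381, against 33.7 and 31.8), and WT replicate 1, lowest of the WT libraries in that mean, was the highest of them for both (72796 and 5934); these 2 genes were named after their values were seen. The part of these cells in the lower mitosis gene levels between the groups was not tested.

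The mitosis genes were measured by read counts per gene on a stranded library, and 8 of them (Ccna2, Plk1, Cdca8, Cdc20, Kif20a, Nusap1, Prc1 and Top2a) overlap a listed gene on the other strand, none on the same strand. The strand setting of the counting is not given in the sources used here, so for these 8 genes reads of the partner cannot be told apart. Leaving them aside, the called genes include Racgap1, Kif23, Birc5, Ect2, Ube2c and Ccnb1, which overlap no listed gene. For reference on GRCm38, Racgap1 lies at chr15:99620496-99651656 (minus strand), Kif23 at chr9:61915905-61946774 (minus strand), Birc5 at chr11:117849251-117855743 (plus strand), Ect2 at chr3:27097222-27153878 (minus strand) and Ttk at chr9:83834689-83872389 (plus strand), by the GENCODE M21 annotation.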

How the data were processed

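RNA of c-Kit+ bone marrow cells was sequenced as poly-A selected, stranded libraries, 3 labelled WT and 3 labelled Runx1 KO. HISAT2 and HTSeq 0.9.1 and the builds mm10 and GRCm38 are named in the submitters' processing notes. The deposited values are a signal, gene read counts that the authors had scaled by library; dividing each library by its smallest step returned whole reads for 100% of values (tolerance 0.001), and the steps matched median-of-ratios size factors. On those reads edgeR called 3261 genes and limma on the deposited values 3370. Each file lists 20097 genes, and symbols came from a gene name table that matched 20077. Genes with enough reads (edgeR filterByExpr, minimum 10) were tested with limma 3.58.1 (mean trend, R 4.3.3) on log2(normalised read count + 1), with group as the only term, two-sided, Benjamini-Hochberg adjusted over 15410 genes, called at an adjusted p under 0.05. Fold changes are on that scale. The fit was tested on simulated data. Alternatives were edgeR 4.0.16 and DESeq2 1.42.0 on recovered reads, limma-voom, TMM and library-total scaling, other filters and pseudocounts (0.5 and 5), a replicate block, removal of GC content and length trends, and leaving out each library. The mitosis genes and the other lists were chosen with earlier results of these data known, so no set test was made. All mitosis genes are described by role. Those given in every library are the 10 with the smallest p, the 4 with the largest falls, the 4 with the highest log2 changes, and Mki67, Top2a, Ccnb1, Cdk1, Plk1, Aurka and Aurkb. Of the 4 with the highest log2 changes, only Ttk was above 0. Of each further list the called genes are named, at most 3 in each direction, with Foxm1 and Mybl2, and of each marker list up to 3 genes.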

Additional observations from a re-analysis of the deposited data

How the results depend on the processing

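Over the settings that used every library, 415 values of single genes kept their direction and side of the threshold, 19 came to pass it, 32 no longer passed and 2 changed sign; with a library left out these were 159, 1, 51 and 5. With library totals 11 mitosis genes were called lower, their median log2 change was −0.22 and 24 genes of the further lists were called, against 45. With GC content and length trends removed these were 5, −0.23 and 19, and with a replicate block added 18 and −0.23 for the mitosis genes. The log2 change of Cenpa was 0.04999 in both fits with trends removed. The median of all genes was 0.078 with library totals and 0.085 with trends removed. The median of the mitosis genes less that of all genes was thus −0.30 and −0.31, against −0.30 as reported. The count was 18 with edgeR, 24 with DESeq2 and 18 with limma-voom; why the settings differ was not tested. Leaving out each library in turn, 5 to 15 mitosis genes and 12 to 37 genes of the further lists were called, and the number of all genes called ran from 1367 to 3597 (3370 with every library). Relative to the replication genes 0 to 3 mitosis genes were called lower, and relative to the mean of the mitosis genes 0 to 3 were called higher. Over the same fits the log2 change of Ttk ran from −0.0566 to 0.0752, that of Anln from −0.19 to 0.0078 and that of Mki67 from −0.24 to 0.0018. With a replicate block in limma 24 mitosis genes were called lower and all genes called came to 3843, and 23 mitosis genes in edgeR. Deviations of same-numbered libraries correlated at 0.287, 0.129 and −0.0104, so the numbers were not taken to pair the libraries. With 3 libraries per group and most changes under 30%, calls near the threshold depend on single libraries.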
